A study of Mus musculus with 19 samples.

Results

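Selenbp1 and Selenbp2 are a pair of mouse selenium-binding protein genes, and their ratios were followed on 19 2-colour microarrays of FDCPmix cells. These are mouse blood progenitors kept as a line that needs interleukin-3. Every probe whose single gene symbol is Selenbp1 or Selenbp2 was taken. That gave 2 genes with 1 probe each (Selenbp1, gene ID 20341, and Selenbp2, gene ID 20342) of the 9834 genes with a single symbol, which 13891 of the 20205 probes carry. The pair was chosen by its low ratios in treated cells and at 3 h, so its ratios in those groups are described here without a test. For the pair, only 7, 12 and 23 h and a dye term over all 19 arrays were tested.

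On 4 arrays the RNA of treated FDCPmix cells, with no time given, was set against RNA of non-treated FDCPmix cells. On the others, RNA of treated cells taken 3, 7 and 12 h (4 arrays each) and 23 h (3 arrays: replicates 1, 3 and 4) after tamoxifen was set against RNA of treated cells at 0 h, so all 4 times share that reference. Replicates 1 and 2 carried their own RNA in Cy5 and the reference in Cy3, and replicates 3 and 4 the other way round, which at 23 h leaves 1 array in the first orientation and 2 in the second. The labels name no genotype, transgene, dose or agent other than tamoxifen, call the line both FDCPmix and an ES cell line, and do not say whether replicates were separate cultures, so p-values measure the spread between these arrays, which may be technical.

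Selenbp1 is a methanethiol oxidase: it turns methanethiol, a sulphur compound made from methionine, into hydrogen peroxide, formaldehyde and hydrogen sulphide. It binds selenium without being a selenocysteine protein, and in humans it is abundant in red blood cells and liver and is often low in tumours. Selenbp2 is its close paralogue in mice, first described in mouse liver as a protein that binds acetaminophen.

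The genes lie near each other on mouse chromosome 3, both on the plus strand, with 9 other RefSeq genes between them. Their promoters are shown because they are nearly alike: each sequence runs from 250 bases before to 50 bases after the start of the gene (RefSeq, GRCm38.p6), at chr3:94932833-94933132 for Selenbp1 and chr3:94693323-94693622 for Selenbp2. Capitals mark bases that differ between them or face a gap in their alignment. The 12 bases of Selenbp1 that lie beyond the ends of the aligned span are in lower case.
Selenbp1: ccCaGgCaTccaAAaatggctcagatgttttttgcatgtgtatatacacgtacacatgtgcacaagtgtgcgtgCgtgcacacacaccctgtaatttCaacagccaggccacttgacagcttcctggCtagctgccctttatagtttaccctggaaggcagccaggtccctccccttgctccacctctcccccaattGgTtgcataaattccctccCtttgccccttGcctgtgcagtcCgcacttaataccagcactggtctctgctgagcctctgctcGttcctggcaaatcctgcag
Selenbp2: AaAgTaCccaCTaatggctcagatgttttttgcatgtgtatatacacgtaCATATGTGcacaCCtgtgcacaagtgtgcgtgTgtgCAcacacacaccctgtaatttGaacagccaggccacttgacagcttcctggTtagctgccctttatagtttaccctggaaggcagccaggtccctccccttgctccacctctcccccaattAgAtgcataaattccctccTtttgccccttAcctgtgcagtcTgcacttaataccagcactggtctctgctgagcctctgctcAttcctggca
Of 300 aligned columns 273 (91.0%) were identical, 15 were mismatches and 12 lay in 3 gaps, all of them extra bases in Selenbp2. The longest identical stretch was 69 bases. Of 5 short motifs searched on both strands, ACGTG, one form of the core of the hypoxia response element, occurred once in each promoter. Of 32851 mouse promoters of this length 19.6% hold it. GCGTG, the core of the dioxin response element, occurred 2 times in Selenbp1 and 1 time in Selenbp2 (32.4% of promoters hold it). The antioxidant response core TGACNNNGC was in neither window, and 12.4% of promoters hold it. The same was true of the nuclear receptor motif AGGTCA, which 16.3% of promoters hold. A motif of erythroid transcription factors, AGATAA, was in neither window either, and 11.2% of promoters hold it. A match is a run of letters and not a shown binding site. The probe sequences were not given, so it is not known whether each probe reads its own paralogue alone, and the values of the pair may share signal.

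Values are the deposited log ratios, read as log2 of the own RNA over its reference. Neither the base nor the direction is stated in the sources used here, and the deposited signs were kept. Array medians were set to 0. An extreme value that repeats over spots of an array was positive on all 9 arrays with own RNA in Cy5 and negative on 9 of the 10 with own RNA in Cy3. The spread of values over spots was wider on the treated arrays (SD 0.619 to 0.642) than at the times (0.235 to 0.36). The 2 arrays in doubt are 7 h replicate 4, the Cy3 array on which that value was positive, and 23 h replicate 3, whose deposited median was 0.233 where all others lay within 0.024 of 0. In a ratio of whole cultures, fewer cells of a type and less RNA per cell cannot be told apart.

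In treated cells both genes had less signal than in non-treated cells on all 4 arrays. Selenbp1 had log2 ratios of -0.75, -0.82, -1.61 and -1.31 in replicates 1 to 4, a mean of -1.12 ± 0.41 (SD, n = 4), or 45.9% of the non-treated signal. Its pair of Cy3 arrays lay lower than its pair of Cy5 arrays, with means of -0.79 in Cy5 and -1.46 in Cy3. Selenbp2 had log2 ratios of -1.44, -1.45, -1.47 and -1.57, a mean of -1.48 ± 0.06 (SD, n = 4), or 35.8% of the non-treated signal. Its 4 arrays lay within a narrow band and hardly moved with the dye (-1.44 in Cy5 and -1.52 in Cy3). With the deposited signs, and counted from the lowest of 15915 features, Selenbp2 stood at place 15 and Selenbp1 at place 64, and the median of all features was 0.01.

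At 3 h after tamoxifen both genes again lay below 0 on all 4 arrays. Selenbp1 had log2 ratios of -0.75, -1.09, -0.61 and -1.35 (mean -0.95 ± 0.34, SD, n = 4), or 51.8% of the 0 h signal. Selenbp2 had -0.58, -1.02, -1.29 and -1.33 (mean -1.06 ± 0.35, SD, n = 4), or 48.0% of the 0 h signal. With the deposited signs they stood at places 20 and 15 from the lowest of 16108 features. Replicate 1 was the highest array for Selenbp2 and replicate 3 the highest for Selenbp1, so the arrays did not order the pair alike.

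**Figure D1:**
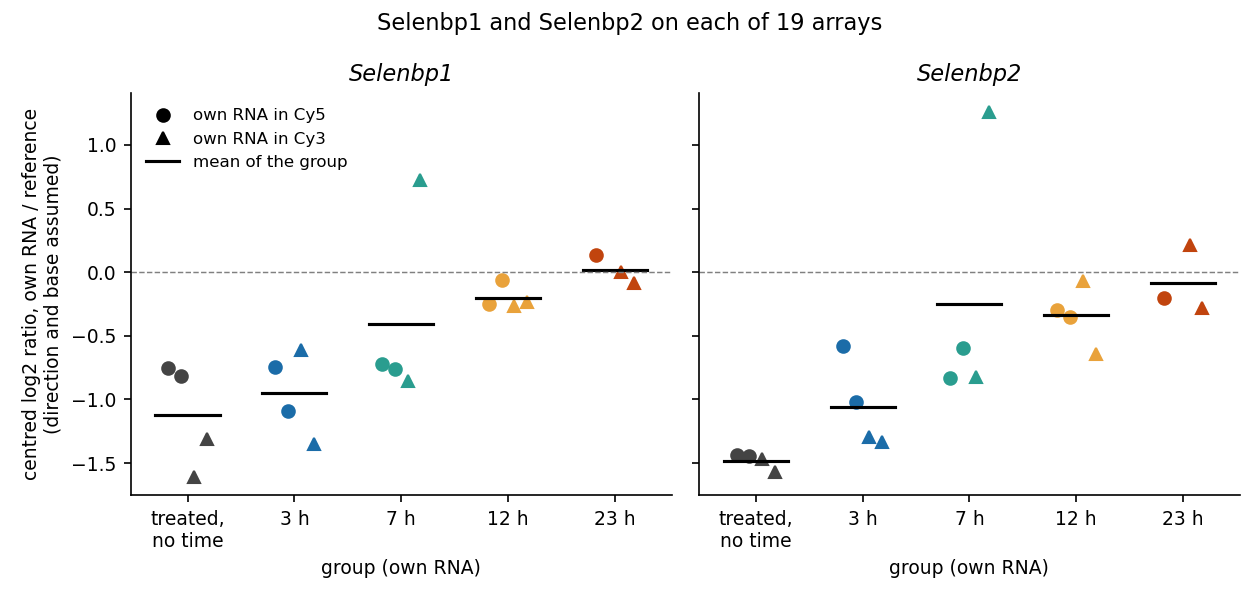
Log2 ratio of each array to its reference (y axis) for Selenbp1 and Selenbp2 by group (x axis), with the own RNA in Cy5 or Cy3 marked and the group mean drawn. All arrays of treated cells and of 3 h lie below 0, and 7 h replicate 4 lies above 0 at 0.72 for Selenbp1 and 1.26 for Selenbp2.

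At 7 h 3 arrays were low and 1 was high. Selenbp1 had log2 ratios of -0.72, -0.76, -0.86 and 0.72, and Selenbp2 had -0.83, -0.60, -0.83 and 1.26, the last value of each being replicate 4. Over all 4 arrays the mean was -0.41 ± 0.75 for Selenbp1 and -0.25 ± 1.01 for Selenbp2 (SD, n = 4). Neither passed limma's test (standard errors 0.21 and 0.25, both adjusted p = 1), and 0% of 16087 features did, with 542 at an unadjusted p under 0.05. The other 3 arrays lay close together, at -0.78 ± 0.07 for Selenbp1 and -0.75 ± 0.13 for Selenbp2 (SD, n = 3), or 58.1% and 59.4% of the 0 h signal.

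The call at 7 h turned on replicate 4. Without it, limma's estimates were -0.82 for Selenbp1 (adjusted p = 0.059) and -0.77 for Selenbp2 (adjusted p = 0.0631), where 0.0248% of 16116 features passed. With its sign changed they were -0.77 (SE 0.11, limma adjusted p = 0.00772) and -0.88 (SE 0.12, adjusted p = 0.00604), and 31 of 16087 features (0.193%) passed. Without both arrays in doubt, limma gave -0.82 for Selenbp1 (adjusted p = 0.0323) and -0.78 for Selenbp2 (adjusted p = 0.0158), and 35 of 16116 features (0.217%) passed. These settings were chosen with the values of replicate 4 known, and which sign that array should carry was not tested.

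At 12 h both genes lay nearer to 0, still below it on all 4 arrays. Selenbp1 had log2 ratios of -0.25, -0.06, -0.27 and -0.23 (mean -0.20 ± 0.09, SD, n = 4), or 86.9% of the 0 h signal. Selenbp2 had -0.30, -0.35, -0.07 and -0.64 (mean -0.34 ± 0.24, SD, n = 4), or 79.0%. Neither passed limma's test (SE 0.21 and 0.25, both adjusted p = 1), and 0.0186% of 16089 features did (0.00622% on the lower side).

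At 23 h the arrays stood on both sides of 0. Selenbp1 had log2 ratios of 0.14, 0 and -0.09 in replicates 1, 3 and 4, and Selenbp2 had -0.20, 0.22 and -0.28. In the fit with the dye term the values were 0.03 (SE 0.24) for Selenbp1 and -0.10 (SE 0.29) for Selenbp2, neither past limma's test (both adjusted p = 0.9999), and 0% of 16116 features passed, with 274 at an unadjusted p under 0.05. Without replicate 3, the array in doubt, the mean was 0.03 for Selenbp1 and -0.24 for Selenbp2.

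The mean ratios of both genes ran upward in the order 3, 7, 12 and 23 h once 7 h replicate 4 was set aside, but the differences between late times did not pass limma's test. From 12 h to 23 h the estimated difference, 23 h minus 12 h, was 0.23 (SE 0.32) for Selenbp1 and 0.24 (SE 0.38) for Selenbp2. The difference 23 h minus 7 h was 0.43 (SE 0.32) and 0.14 (SE 0.38), and 12 h minus 7 h was 0.20 (SE 0.29) and -0.09 (SE 0.35). Without 7 h replicate 4, 23 h minus 7 h was 0.88 for Selenbp1 (limma adjusted p = 0.548) and 0.71 for Selenbp2 (adjusted p = 1), and 12 h minus 7 h was 0.62 and 0.43. 0% of features passed in each of the 3 contrasts in limma, with 326 (23 h minus 7 h), 321 (12 h minus 7 h) and 258 (23 h minus 12 h) at an unadjusted p under 0.05.

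By dye orientation, the low values stood in both. In the Cy5 arrays, Selenbp1 averaged -0.79 in treated cells and -0.92, -0.74, -0.16 and 0.14 at 3, 7, 12 and 23 h, and Selenbp2 averaged -1.44 in treated cells and -0.80, -0.71, -0.33 and -0.20. In the Cy3 arrays, Selenbp1 averaged -1.46 in treated cells and -0.98, -0.07, -0.25 and -0.04 at the times, and Selenbp2 averaged -1.52 in treated cells and -1.31, 0.22, -0.36 and -0.03. Selenbp1 thus differed between the dyes most in treated cells and at 7 h, and Selenbp2 most at 3 h and 7 h, where the Cy3 mean at 7 h holds replicate 4. The dye term over all 19 arrays was 0.03 (SE 0.10, limma adjusted p = 0.921) for Selenbp1 and -0.05 (SE 0.11, adjusted p = 0.889) for Selenbp2, and 0.0124% of 16148 features passed it. Without 7 h replicate 4 it was 0.12 for Selenbp1 (limma adjusted p = 0.353) and 0.07 for Selenbp2 (adjusted p = 0.587), so 1 array sets its size and, for Selenbp2, its sign.

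These directions rest on the deposited signs. If the columns of Cy3 arrays had been deposited as Cy5 over Cy3, their signs would have to be changed, and the means would then be 0.34 for Selenbp1 and 0.04 for Selenbp2 in treated cells, and 0.03 and 0.26 at 3 h. At 7 h they would be -0.34 and -0.47, and at 12 h 0.05 and 0.02. For 23 h the fit with the dye term (-0.57 and -0.69 with these signs) gave -0.12 and -0.28. These 23 h values are not plain means: Selenbp1 had 0.14 in Cy5, and its Cy3 mean of -0.04 would turn positive. None of the values at 7, 12 and 23 h passed limma's test. The places among all features and the percentages of reference signal given above hold for the deposited signs alone. The within-orientation values above do not depend on that choice except in the sign of the Cy3 ones: in the Cy5 arrays alone, read as the own RNA over its reference, both genes were low in treated cells and at 3 and 7 h. Which reading applies was not tested.

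**Figure D2:**
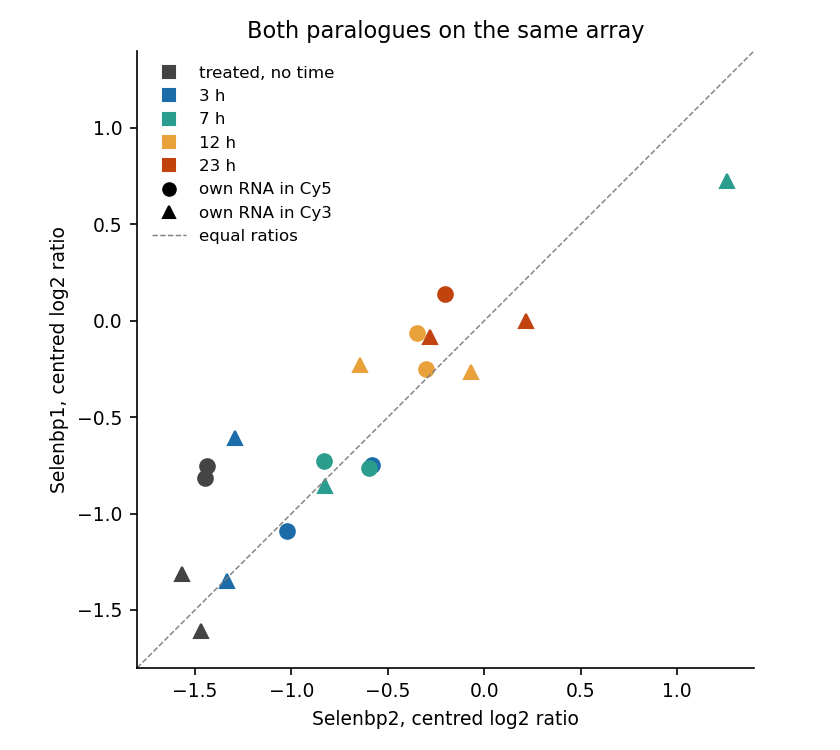
Log2 ratio of Selenbp1 (y axis) against that of Selenbp2 (x axis) on each of the 19 arrays, coloured by group, with circles for own RNA in Cy5, triangles for Cy3 and a dashed line of equal values. The points follow the line, with 7 h replicate 4 alone in the upper right.

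The ratios of the paralogues went together over the arrays. Across all 19 arrays Pearson's r between Selenbp1 and Selenbp2 was 0.88 and Spearman's rho 0.85. Within the 9 arrays with own RNA in Cy5 r was 0.74 and rho 0.83, and within the 10 with Cy3 r was 0.93 and rho 0.92. Without both arrays in doubt r was 0.82 and rho 0.79 over 17 arrays, and without the 2 arrays farthest from the median of Selenbp1 (treated replicate 3 and 7 h replicate 4) r was 0.82. These are descriptions, since 15 of the arrays share the 0 h reference and the low groups chose the pair.

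Taken as Selenbp1 minus Selenbp2 on the same array, the differences in treated cells were 0.68, 0.63, -0.14 and 0.26 (mean 0.36 ± 0.38, SD, n = 4). The Cy5 arrays of treated cells thus showed Selenbp2 lower than Selenbp1, while the Cy3 arrays fell on both sides of 0. At 3 h the differences were -0.17, -0.07, 0.68 and -0.02 (mean 0.11 ± 0.39, SD, n = 4), and replicate 3 alone was far from 0.

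Over the 11 arrays at 7, 12 and 23 h the difference averaged 0.02 ± 0.29 (SD), with 6 arrays above 0 and 5 below. An exact two-sided sign-flip permutation test gave p = 0.812 (the smallest p it allows is 0.000977). At 7 h the mean difference was -0.16 ± 0.28 (exact permutation p = 0.375), at 12 h 0.14 ± 0.27 (exact permutation p = 0.375), both n = 4, where the smallest p possible is 0.125. At 23 h it was 0.11 ± 0.29 (n = 3, exact permutation p = 0.75, smallest possible 0.25). The Cy5 arrays exceeded the Cy3 arrays in this difference by 0.19 over the 11 arrays (exact two-sided permutation p = 0.307). Leaving out 1 array at a time moved the mean difference over -0.02 to 0.08 for the 11 arrays, -0.25 to -0.03 at 7 h (-0.03 without replicate 4), 0.05 to 0.25 at 12 h and -0.01 to 0.27 at 23 h. A p above the threshold does not show that the paralogues act alike, and at these sizes the groups alone could not pass 0.05.

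**Figure D3:**
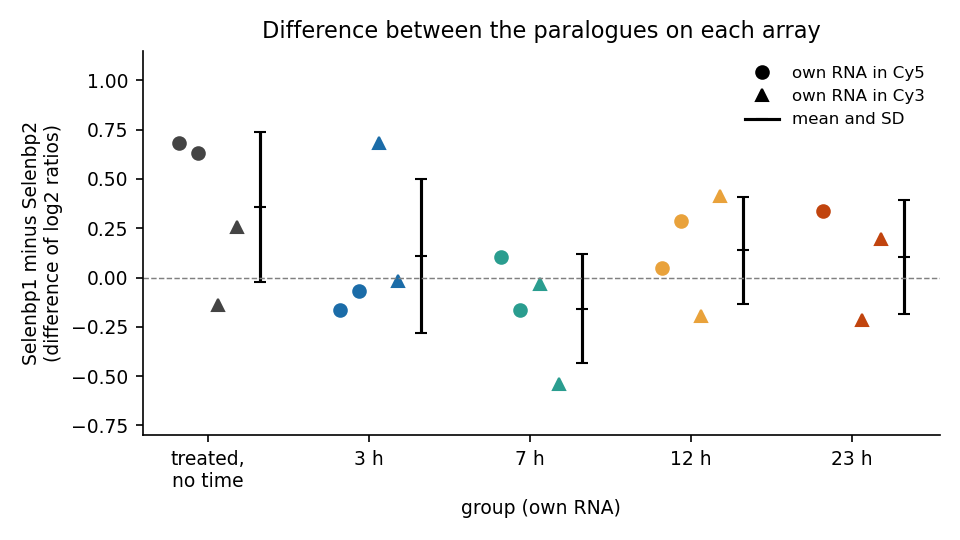
Selenbp1 minus Selenbp2 (y axis, difference of log2 ratios on one array) for each array by group (x axis), by dye orientation, with group means. The 2 Cy5 arrays of treated cells lie at 0.68 and 0.63, and the arrays of 7, 12 and 23 h lie on both sides of 0 between -0.54 and 0.41.

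Genes whose ratios most resembled the pair over the 19 arrays were named by Pearson's r over 9734 genes. For Selenbp1 the closest were Ndrg1 (r = 0.91, a stress-induced gene), Cdkn1a (0.89, the p21 inhibitor of cyclin-dependent kinases), Selenbp2 (0.88) and Slc2a3 (0.87, a glucose transporter). Scd2 (0.86, a fatty acid desaturase), Mphosph6 (0.85, an RNA exosome factor), Bnip3 (0.82, a mitophagy receptor) and Fanca (0.82, of the Fanconi anaemia core complex) came next. For Selenbp2 they were Zfyve1 (0.89), Selenbp1 (0.88), Ndrg1 (0.87), Fam83g (0.86), Slc2a3 (0.86), Pi4kb (0.85, a phosphatidylinositol 4-kinase), Fdps (0.84, farnesyl diphosphate synthase) and Calu (0.84, a calcium-binding protein). Selenbp2 was thus the third closest gene to Selenbp1 and Selenbp1 the second closest to Selenbp2, and under 5 other settings each stood between the second and sixth place. All of these settings keep the arrays of treated cells and of 3 h, whose low values chose the pair. A high place of each for the other was thus partly built in, and the places are descriptions.

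Ndrg1 and Slc2a3 stood in both lists. Ndrg1 averaged -1.19 ± 0.41 in treated cells and -1.15 ± 0.20, -0.63 ± 1.11, -0.43 ± 0.29 and -0.02 ± 0.08 at 3, 7, 12 and 23 h (SD, n = 4, at 23 h n = 3). Slc2a3 averaged -0.98 ± 0.37 in treated cells and -0.59 ± 0.30, -0.25 ± 0.57, -0.29 ± 0.17 and -0.10 ± 0.27 at those times. Zfyve1 stood near -1.20 ± 0.12 in treated cells and -0.84 ± 0.29, -0.25 ± 0.73, -0.04 ± 0.49 and -0.09 ± 0.05 at those times. For Ndrg1, Slc2a3 and Zfyve1 the 23 h values are estimates of the fit with the dye term and not plain averages. The SD beside them is that of the arrays. Bnip3 stood at -1.38 in treated cells and -1.38 at 3 h, while Pi4kb stood at -1.17 in treated cells and -0.21 at 3 h. These groups have different references, and the treated arrays a wider spread over spots, so sizes cannot be compared directly between them. On 7 h replicate 4 all of these genes stood above 0, from 0.56 for Slc2a3 to 1.0 for Ndrg1, and that array weighs in every r. Without both arrays in doubt, 4 of the 8 genes nearest Selenbp1 and 4 of the 8 nearest Selenbp2 were the same. With all 19 arrays kept, 4 and 3 were the same by Spearman's rho, and 7 and 5 with the dye means removed.

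**Figure D4:**
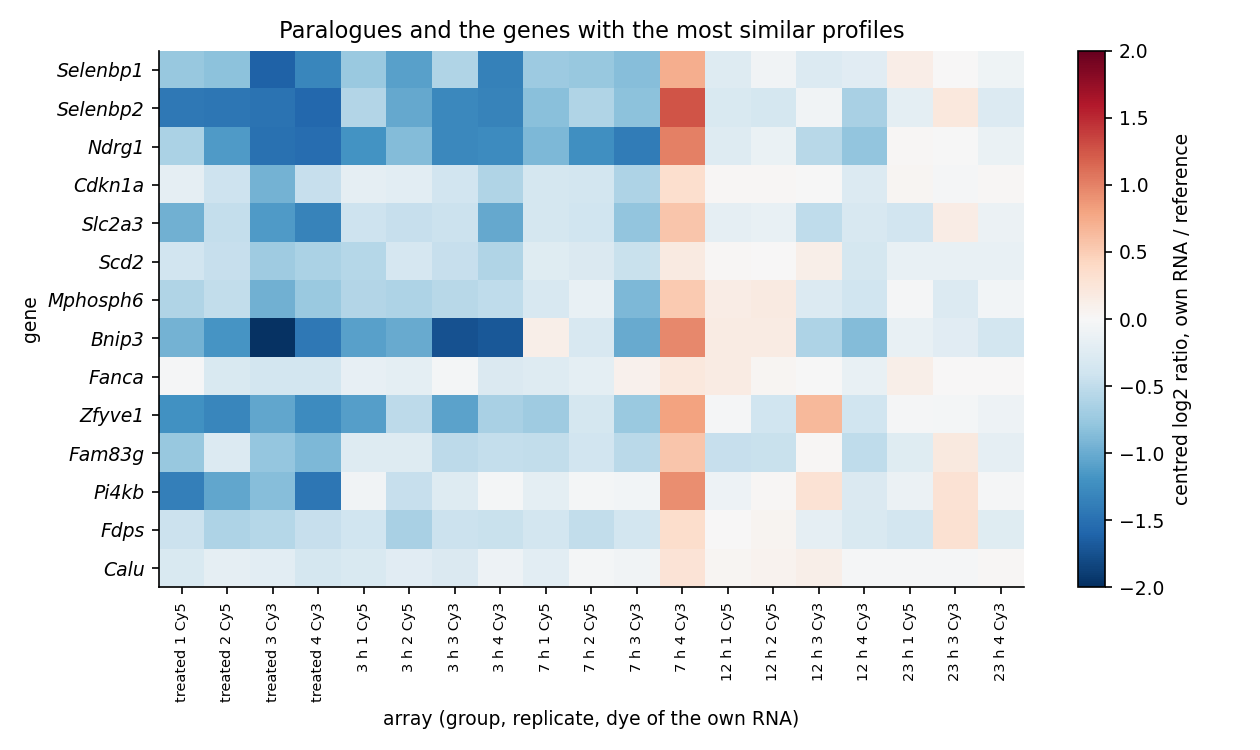
Log2 ratio of Selenbp1, Selenbp2 and their closest genes (rows) on each of the 19 arrays (columns, by group and replicate), with blue below and red above 0. Every row lies below 0 on all arrays of treated cells and of 3 h and above 0 on 7 h replicate 4, and the rows lie on both sides of 0 at 12 and 23 h, between -0.867 and 0.648 at 12 h.

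Genes of the pathways around the pair were called in both directions in treated cells. Of 22 measured genes of sulphur amino acid and sulphide metabolism, 1 rose and 2 fell in treated cells (limma, adjusted p under 0.05), where 4.76% of 15915 features were called (2.39% higher and 2.38% lower). Tst, a mitochondrial sulphurtransferase, fell by 0.43 (SE 0.08, adjusted p = 0.00893) and was below 0 on all 4 arrays. Got1, which makes and uses aspartate and also acts on cysteine sulphinate, fell by 0.49 (SE 0.12, adjusted p = 0.0342). Gclm, the modifier subunit of the enzyme that starts glutathione synthesis, rose by 0.52 (SE 0.14, adjusted p = 0.0422). Got1 and Gclm each lost the call when 1 array was left out: Got1 without replicate 2, 3 or 4 and Gclm without replicate 1, 3 or 4. The list's median was 0.03 in treated cells against 0.01 for all features. The calls named from the gene lists, and that of the neighbour Pi4kb, were made in the fit over all 19 arrays and were lost with scale or quantile normalization, array weights or treated arrays alone, and with the signs of Cy3 arrays changed Gclm, Got1, Tst, Gpx2 and Lox took the opposite direction, while Pi4kb (-0.03, limma adjusted p = 0.969) and Cat (-1.01, adjusted p = 0.122) kept theirs without passing.

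Of 18 measured selenoproteins, which carry selenocysteine unlike the pair, 1 passed in treated cells, where 4.76% of all 15915 features did (2.39% higher). Gpx2, a glutathione peroxidase, had 0.79, 0.38, 0.32 and 1.41 on the 4 arrays and rose by 0.72 (SE 0.14, limma adjusted p = 0.0138), and the list's median was 0.05. None of 5 genes that make or insert selenocysteine passed. The one with the lowest p was Sephs1, a selenophosphate synthetase homologue, at 0.19 (limma adjusted p = 0.205).

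Of 13 genes that remove peroxide, a product of the Selenbp1 reaction, 1 passed in treated cells, where 4.76% of all features did (2.38% lower). Cat, the peroxisomal catalase, had -0.69, -2.93 and -0.44 on the 3 arrays with a value, a mean of -1.34 in the fit (SE 0.34, n = 3, limma adjusted p = 0.0396). Its replicate 2 stood far below the others, and without it the estimate was -0.57 (limma adjusted p = 0.117). In every list 0 genes passed at 3, 7, 12 and 23 h in limma, where 0%, 0%, 0.0186% and 0% of all features did (865, 542, 565 and 274 of all features had an unadjusted p under 0.05). Of the 13 peroxide genes, 6 lay below 0 in treated cells and 6, 4, 4 and 11 at 3, 7, 12 and 23 h. The median at 23 h was -0.09, where 50.6% of all features lay below 0.

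Selenbp1 is abundant in red cells, and the erythroid markers gave no called change in treated cells: 8 of 12 lay below 0, with a median of -0.05, where 47.9% of all features lay below 0. At 3, 7, 12 and 23 h, 2, 6, 3 and 5 of the 12 lay below 0, with medians of 0.08, -0.01, 0.06 and 0.06. The lowest p was that of Klf1, an erythroid transcription factor, at -0.53 (SE 0.16, limma adjusted p = 0.0697). Of 11 progenitor markers none passed, and the lowest p was that of Csf2rb2, a chain of the interleukin-3 receptor, at -0.38 (adjusted p = 0.156). Of 8 pluripotency markers none passed, the lowest p being that of Fgf4 at -0.32 (limma adjusted p = 0.0727). Of 9 fibroblast markers 1 fell in treated cells, where 4.76% of all features were called (2.38% lower). It was Lox, a collagen-crosslinking oxidase, which fell by 0.33 (SE 0.07, limma adjusted p = 0.0221, lost without replicate 3). A ratio shows a shift between the 2 RNAs and holds no level, so presence of a cell type could not be checked here. Whether marker shifts play a part in the values of the pair was not tested.

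Of the genes next to the pair on chromosome 3, taken as the 5 nearest RefSeq genes on each side of each, 7 were measured. Only Pi4kb, which lies 3 places after Selenbp1, passed in treated cells, 1 of 7 where 4.76% of all features did. Pi4kb had -1.37, -1.04, -0.85 and -1.44 on the 4 arrays, and fell by 1.17 (SE 0.15, limma adjusted p = 0.000973) with the deposited signs, a fall that was not there with the signs of Cy3 arrays changed. The other 6, among them Psmb4, a proteasome subunit, and Zfp687, had means between -0.08 and 0.08. Rfx5, a transcription factor of MHC class II genes that directly follows Selenbp1, had a mean of 0.01 from 2.00, -1.21, -0.65 and -0.08, so its arrays did not agree. At 3 h Pi4kb stood at -0.21. None of the 7 passed there, as 0% of all 16108 features did (limma, adjusted p under 0.05, with 865 at an unadjusted p under 0.05).

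**Figure D5:**
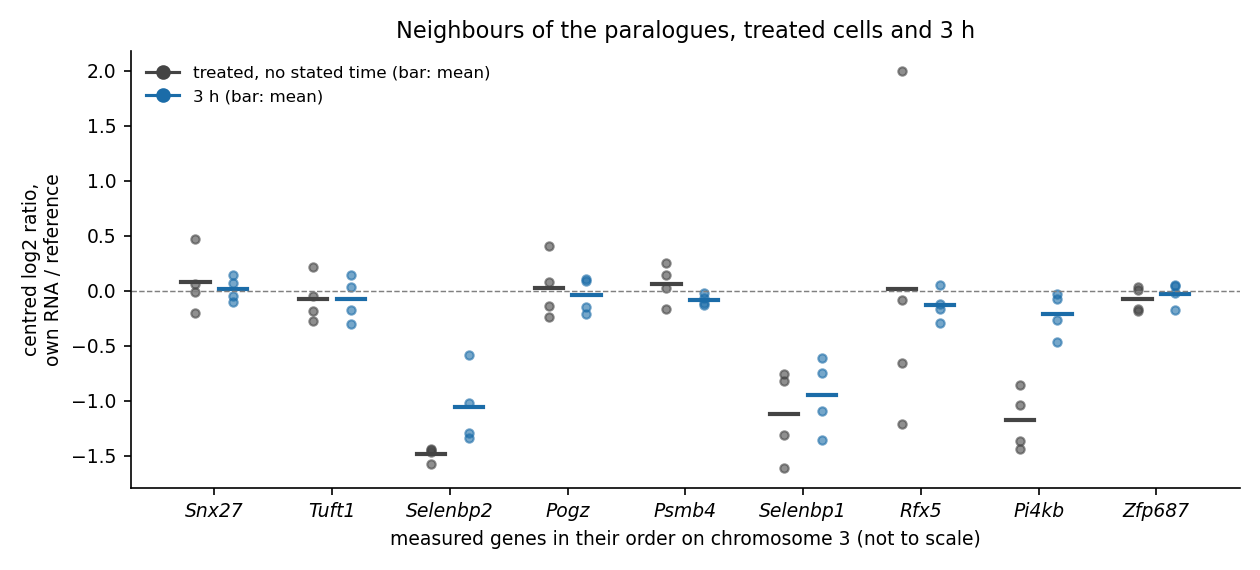
Log2 ratios on each array for Selenbp1, Selenbp2 and the 7 measured neighbouring genes in their order on the chromosome, in treated cells and at 3 h. In treated cells Selenbp1, Selenbp2 and Pi4kb lie below 0 on all arrays, and at 3 h the pair lies at -0.95 and -1.06 on average with Pi4kb at -0.21.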

How the data were processed

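The authors deposited 1 log ratio per spot for each array, here read as log2. The sources used here do not give the base, the numerator, the normalization or the genome build. Per the labels' protocols the RNA was labelled indirectly with Cy3 or Cy5. Those protocols speak of organs and of a reference pooled from control animals, which the cell line named in the labels does not explain. The extreme value that stands on many spots of each array (size 16.2 to 17.0, 290 spots in all) was left out, each array was centred on its spot median, and probes of one gene were averaged, giving 16148 features. Each array had 19658 to 20158 values, and precision is limited by how few arrays a group has.

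limma 3.58.1 (lmFit and eBayes, R 4.3.3) fitted 1 coefficient per group and a dye term over all 19 arrays, with Benjamini-Hochberg adjustment over the features tested in a group and a threshold of 0.05. Features needed a value on all arrays of the group or all but 1. Fits were tested on simulated data. The difference between the paralogues was tested by exact permutation. Alignment used Biopython 1.88.

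Symbols came from the platform's annotation table, of which 13855 matched RefSeq by gene ID. 5 probes have several symbols and 6309 none. Named genes are the pair, the 8 genes of highest Pearson r with each, list genes with an adjusted p under 0.05 (otherwise those of lowest p) and measured genes among the 5 nearest on each side. The members and lists were chosen with earlier results of these data known. Alternatives changed the signs of Cy3 arrays or of 7 h replicate 4, the scaling, the weights, the arrays and the features used.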

Additional observations from a re-analysis of the deposited data

Results flagged for a closer look

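Within groups of 4 arrays, 9 values stood apart from their group by Dixon's test at its 95% critical value, of 107 sets tested: those of 26 genes in the groups of 4 with all values, and 4 sets of the difference between the paralogues. Chance flags about 1 in 20 sets, but that rate cannot be read against these genes, since most were chosen for their likeness to the pair, to which 7 h replicate 4 adds, or for their calls. 5 of the 9 were on 7 h replicate 4, one of the arrays in doubt: Selenbp1 at 0.722, Selenbp2 at 1.26, Fam83g at 0.55, Pi4kb at 0.928 and Fdps at 0.345, each above the other arrays of 7 h. The others were Slc2a3 on 3 h replicate 4 (-1.029), Cdkn1a on 12 h replicate 4 (-0.278), Fam83g on 12 h replicate 3 (0.018) and Fanca on treated replicate 1 (-0.021). The cause of these values was not tested.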

How the results depend on the processing

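With the signs of Cy3 arrays changed, treated cells gave 0.34 for Selenbp1 and 0.039 for Selenbp2, 3 h gave 0.031 and 0.26, and 5 of the 6 called list genes turned direction, Cat being the exception: Gclm -0.029, Got1 0.155, Gpx2 -0.14, Lox 0.044 and Tst 0.065. Scale normalization gave -0.69 for Selenbp1 and -0.90 for Selenbp2 in treated cells, and quantile normalization -0.76 and -0.90. At 3 h scale normalization gave -1.10 and -1.27, and quantile normalization -1.25 and -1.38. With either, both genes were thus lower at 3 h than in treated cells, the reverse of the order in the main fit. At 7 h limma passed both genes with the sign of replicate 4 changed (-0.77 and -0.88) and without both arrays in doubt (-0.82 and -0.78). Leaving out 1 array, Selenbp1 ranged over -1.25 to -0.96 in treated cells, -1.08 to -0.82 at 3 h, -0.82 to -0.25 at 7 h, -0.24 to -0.17 at 12 h and -0.02 to 0.07 at 23 h. Selenbp2 ranged over -1.51 to -1.43, -1.25 to -0.94, -0.77 to -0.02, -0.42 to -0.22 and -0.24 to 0.01.

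Features called in treated cells numbered 758, against 1313 with Cy3 signs changed, 488 in Cy3 arrays only, 1456 without replicate 2, 5 with scale normalization, 3 with quantile normalization, 2 with array weights and 0 with treated arrays only. None of Cat, Gclm, Got1, Gpx2, Lox, Tst and Pi4kb was called with array weights, scale or quantile normalization or treated arrays alone. At 3 h the 0 became 17 with the sign of 7 h replicate 4 changed, 18 without both arrays in doubt and 3 with array weights. At 12 h the 3 became 26 without both arrays in doubt, 42 with array weights, 5 with quantile normalization, and 0 in Cy5 arrays only, in complete features and in 12 h arrays only, 1 in Cy3 arrays only, 6, 6 and 7 without replicates 2, 3 and 4. At 23 h the 0 became 27 without both arrays in doubt, 1 in Cy5 arrays only and 1 without replicate 3. At 7 h it became 1 without replicate 3.

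Deviations from group means correlated by -0.108 to 0.194 between same-numbered arrays of different groups (4 of 36 pairs over 0.1). For 6 of 19 arrays, the mean correlation with arrays of other groups was highest for their own number. No clear pairing by number was seen, but with so few arrays per group these values cannot exclude it. With the replicate number as a block, 606 features were called in treated cells, the pair kept its values (-1.12 and -1.48 in treated cells), and Gclm (adjusted p = 0.0582) and Got1 (0.0542) lost the call. The cause of these changes was not tested. The number of arrays limits what can be told apart.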
